A study of Mus musculus with 4 samples.

Results

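The genes described here encode the protein parts of the cytoplasmic ribosome. They were taken by name, as symbols of Rpl or Rps followed by digits with an optional final a or x, together with Rplp0, Rplp1, Rplp2 and Rpsa, without predicted genes and pseudogenes. This gave 76 genes of the 32285 features, 46 of the large and 30 of the small subunit, lying on 19 chromosomes, and all 76 had UMIs (unique molecular identifiers, each standing for 1 captured RNA molecule) in every section. The data are 4 Visium sections of ICR mouse hearts, in which RNA is captured on an array of barcoded spots that can each hold several cells. At postnatal day 1 a cooled probe was held to the apex of the left ventricle for 5 seconds, and hearts were taken 1, 4, 7 and 14 days later, called d1, d4, d7 and d14, at postnatal days 2, 5, 8 and 15. All 4 hearts carried the cryoinjury, 1 section stands for each time point, and no uninjured heart is part of the comparison. Differences between sections are therefore differences between single hearts, in which time after injury and age cannot be told apart, and no test between them was possible.

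Ribosomal proteins are made in near equal numbers and are assembled with ribosomal RNA in the nucleolus, so their genes are usually expressed together and at high levels. Their mRNAs begin with a C followed by a run of C and T bases, the terminal oligopyrimidine (TOP) element, through which mTORC1 and the RNA-binding protein Larp1 control how much of them is translated. In the heart, muscle cells stop dividing in the first days after birth and go on growing in size. Striated muscle also has paralogues of 2 broadly expressed genes, Rpl3l for Rpl3 and Eef1a2 for the elongation factor Eef1a1.

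The annotated start sites are shown for members at both ends of the later results, because the start carries the element that the set is known for. Each line gives 30 bases before to 30 bases from the annotated start, 5′ to 3′ on the gene's strand, from the RefSeq promoter table on GRCm38. Capitals mark a run of at least 6 C or T bases that overlaps the start, or the letters CTTTCC. Rpl35 had one of the lowest ratios of d14 to d1 and Rpl28 one of the highest, and both have such a run.
Rpl35, chr2:39005102-39005161, minus strand: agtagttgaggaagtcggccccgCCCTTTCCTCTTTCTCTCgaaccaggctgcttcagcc
Rpl28, chr7:4792935-4792994, plus strand: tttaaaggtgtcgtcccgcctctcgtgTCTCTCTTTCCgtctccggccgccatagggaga
At d14 Rps12 had lost among the most and Rps2 and Rpl18 the least, and in none of these 3 windows does a run of that length overlap the annotated start. Each does hold a run of at least 6 C or T bases a little after it, which the rule does not count. Rpl18 has CTTTCC in its run.
Rps12, chr10:23787180-23787239, minus strand: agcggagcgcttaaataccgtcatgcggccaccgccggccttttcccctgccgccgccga
Rps2, chr17:24720033-24720092, plus strand: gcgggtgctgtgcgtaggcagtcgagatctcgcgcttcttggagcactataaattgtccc
Rpl18, chr7:45718041-45718100, plus strand: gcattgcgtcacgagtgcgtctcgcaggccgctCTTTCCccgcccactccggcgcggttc
Rpl3l is no member and rose where all members fell, and its first annotated start has neither feature.
Rpl3l, chr17:24727796-24727855, plus strand: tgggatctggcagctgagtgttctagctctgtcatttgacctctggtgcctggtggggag

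The promoter table held 56 of the 76 members. A run of at least 6 C or T bases overlapped the annotated start in 19 of these 56 (33.9%), against 8.48% of all 27025 genes in the table and 2.90% of the 69 matched mitochondrial ribosomal protein genes. CTTTCC on the gene's strand, anywhere from 250 bases before to 50 bases after the start, was found in 23 of the 56 (41.1%) and in 16.0% of all genes, and on either strand in 51.8% and 29.3%. A CTTTCC inside a run counts for both. An annotated start need not be the start used in these hearts, and these matches are descriptions of the letters. The 19 members with a run had a median d14 to d1 ratio of 0.588 (0.416 to 0.724) and the 37 without one 0.534 (0.392 to 0.753), so the ranges overlapped almost wholly.

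Section d1 kept 445 spots (median 7810 UMIs per spot), d4 kept 662 (7998), d7 kept 774 (8028) and d14 kept 1175 (3770). Levels are given as CPM, a gene's UMIs scaled to 1000000 UMIs, not divided by transcript length, over a total that leaves out 8 haemoglobin and 13 mitochondrially encoded genes, and bracketed intervals are 95% counting intervals that do not cover the difference between hearts. The d7 section stood apart in 2 ways: mitochondrially encoded genes took 11.6% of its UMIs against 5.17% to 8.54% in the others, and it had 1 UMI of Xist and 460 of the Y-linked Eif2s3y, where the others had 158 to 341 and 0. At d7 these differences cannot be told apart from time after injury. Heart muscle was present as labelled, since all 28 cardiomyocyte markers were detected in every section. Sections shared 248 to 754 spot barcodes in each pair, and spots were kept apart by section.

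Ribosomal protein genes gave 294106 UMIs in the d1 section, which is 9.12% of its total. They gave 463568 (7.93%) in that of d4, 470390 (8.45%) in that of d7 and 215159 (5.00%) in that of d14. The d14 section was the lowest by a wide margin and d1 the highest. Against d1, the summed level was 0.869 at d4 (0.865 to 0.873), 0.926 at d7 (0.922 to 0.9304) and 0.548 at d14 (0.545 to 0.551). From d7 to d14 the ratio was 0.592. From d4 to d7 the sum was 1.07 times higher, but 0.987 when the mitochondrially encoded and haemoglobin genes were put back into the total, so d4 and d7 have no order that holds under both totals. A lower share in a spot can come from fewer cells with a high level or from less of these RNAs per cell, and these cannot be told apart here. The cardiomyocyte markers took 13.1%, 12.002%, 13.6% and 16.2% of UMIs, in the order of the sections. With the cardiomyocyte list and the nuclear respiratory chain genes left out of the total, the d14 to d1 ratio was 0.577.

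A gene was counted as lower at a ratio of 0.8 or less, and as higher at the inverse of 0.8 or more, if its interval excluded 1 and it reached 20 CPM on either side. At d14, all 76 members were lower than at d1, where 27.1% of 6997 features were lower and 24% higher. Among features reaching 200 CPM, as every member does, 33.3% were lower and 27% higher. The members' ratios ran from 0.390 to 0.753 with a median of 0.563, against a median of 0.963 over all features. At the 2-fold limit 19 of 76 members were lower, where 6.06% of features were lower and 7.37% higher. All 76 members had their lowest level at d14, under each of the 5 totals tried.

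At d4, 13 members were lower than at d1 and none was higher, with 8.67% of 7292 features lower and 30.1% higher. Among features reaching 200 CPM 18.9% were lower and 18.3% higher, so the count of lower members is near that background. The median over all features was 1.13 at d4 (0.17 on the log2 scale), while that of the members was 0.886. With TMM scaling, which centres most genes, 48 members were lower, but the share of all features lower under that scaling was not computed. The 13 were Rplp0, Rplp1, Rpl23a, Rpl32, Rpl36, Rps12, Rps13, Rps15a, Rps25, Rps26, Rps28, Rps29 and Rpsa. At d7, 12 members were lower and 2 were higher, with 17.8% lower and 15.9% higher among 6884 features, and 16.5% and 17.5% among those reaching 200 CPM. The count of lower members is again near the background. The 2 higher members were Rpl41, the shortest ribosomal protein, and Rps27. The 12 lower ones were Rpl3, Rpl4, Rpl5, Rpl13a, Rpl14, Rpl23, Rpl23a, Rpl27a, Rps6, Rps12, Rps25 and Rps26. Both lists of members were named after their values were seen.

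**Figure D1:**
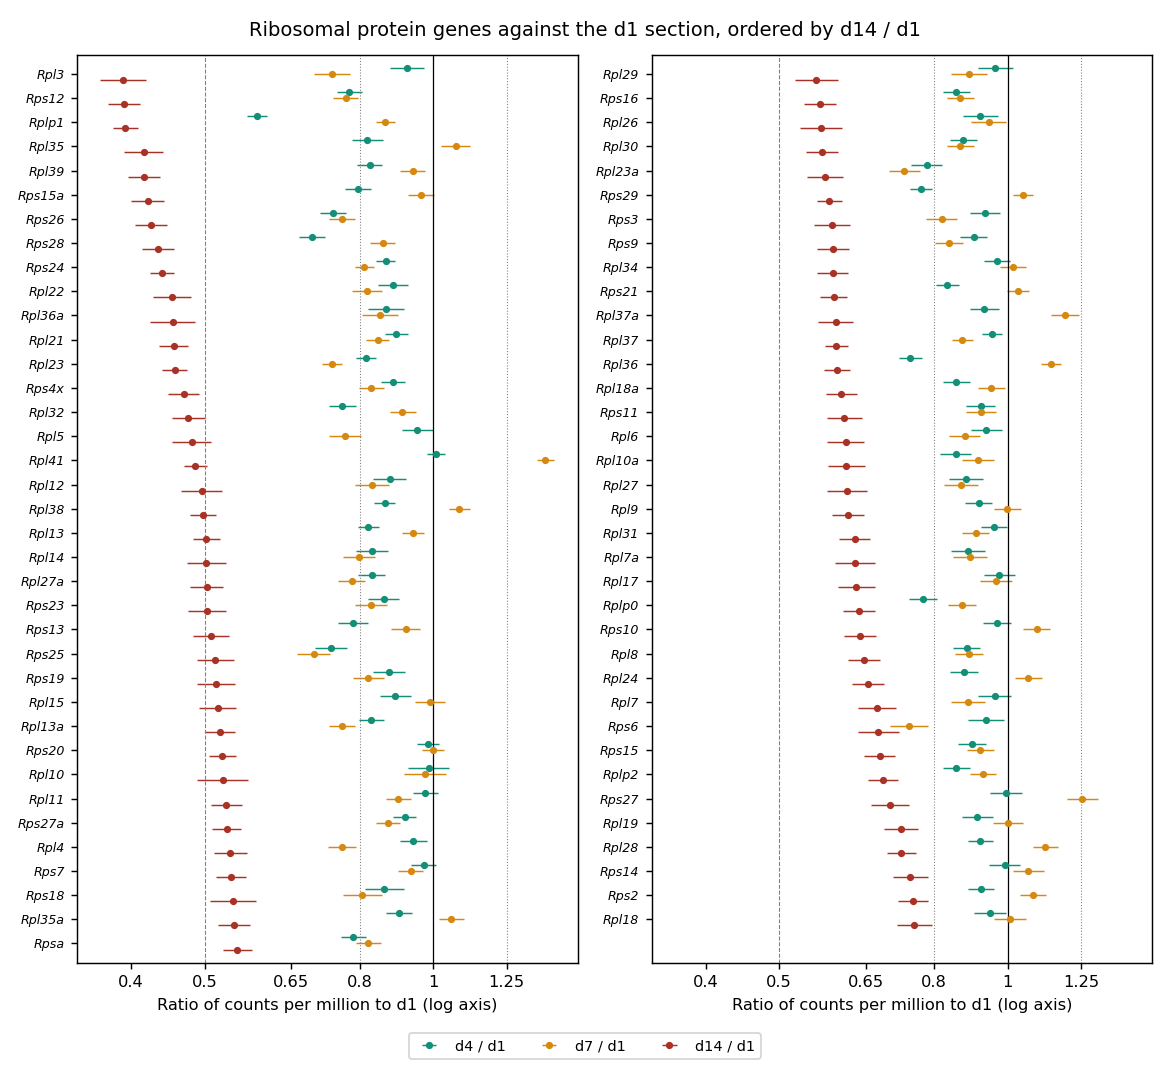
Ratio of the level (CPM) in the d4, d7 and d14 sections to that in the d1 section for 73 of the 76 ribosomal protein genes, on a log axis, ordered by the d14 ratio from low (top left) to high (bottom right). Points are ratios of pooled counts, bars are 95% counting intervals, dotted lines mark 0.8 and its inverse and the dashed line 0.5; every d14 point lies between 0.390 and 0.753.

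The sum can hide members that part from the set, so each member's share of all members' UMIs, called its make-up here, was compared as well. This measure does not depend on the total chosen. At d14, 61 of 76 members kept their share within those limits of d1 or had an interval reaching 1, 7 had a higher and 8 a lower share. The 7 were Rpl18, Rpl19, Rpl28, Rplp2, Rps2, Rps14 and Rps27, and the 8 were Rpl3, Rpl35, Rpl39, Rplp1, Rps12, Rps15a, Rps26 and Rps28. At d4 only Rplp1 and Rps28 parted from the set by this rule, both downward. At d7 Rpl37a, Rpl41 and Rps27 had a higher and Rpl3, Rpl23, Rpl23a and Rps25 a lower share. The balance between the subunits moved little: large subunit genes gave 59.8%, 60.02%, 60.6% and 59.8% of members' UMIs.

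Rpl18 had 837, 793, 842 and 630 CPM at d1, d4, d7 and d14. Its first 3 levels lie close together and its d14 level was 0.753 of d1 (0.714 to 0.794), with a make-up ratio of 1.37. Rps2, which lines the path by which mRNA enters the small subunit, had 1187, 1094, 1280 and 890 CPM and a d14 ratio of 0.750 (0.717 to 0.785). Rps14, on the mRNA exit side, had 875, 866, 931 and 651 CPM, with a ratio of 0.744 (0.706 to 0.785). These 3 members lost the smallest part of their level by d14. Rpl28 had 1304, 1200, 1460 and 945 CPM, and Rpl19, at the rim of the peptide exit tunnel, had 893, 814, 893 and 646 CPM.

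At the other end, Rpl3, which reaches into the peptidyl transferase centre, had 737, 680, 542 and 288 CPM and was lower at each later section. Its d14 ratio was 0.390 (0.364 to 0.418) and its make-up ratio 0.713. Rps12 had 1488, 1154, 1142 and 583 CPM, with a ratio of 0.392 (0.373 to 0.411). Rpl39, a small protein in the wall of the exit tunnel, had 1441, 1188, 1354 and 599 CPM, and Rpl35, at the tunnel's rim, had 938, 769, 1004 and 390 CPM. Rpl35 and Rpl39 were lower at d4 than at d1, higher again at d7, and had their largest drop between d7 and d14. The level of Rpl3 was instead lower at d7 than at d4, and that of Rps12 was nearly the same in both. Rps12 was counted as lower than d1 already at d4, and Rpl3 at d7 but not at d4.

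The P stalk, made of Rplp0, Rplp1 and Rplp2 on a base that includes Rpl12, binds the GTPase factors that drive translation. Its 4 genes summed to 5560, 4021, 4863 and 2895 CPM. Its d4 ratio was 0.723 (0.709 to 0.737), the lowest d4 ratio of the groups with more than 1 gene. Rplp1 set most of this, with 2447, 1435, 2116 and 962 CPM and a d4 ratio of 0.587, the lowest d4 ratio of all members. Its partner Rplp2 had 1217, 1041, 1128 and 834 CPM, a d14 ratio of 0.686 against 0.393 for Rplp1. The pair therefore ended on opposite sides of the set, with make-up ratios at d14 of 1.251 and 0.718.

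Rpl5 and Rpl11 bind the 5S ribosomal RNA and, when free of the ribosome, Mdm2. Rpl5 had 909, 866, 696 and 437 CPM, a d14 ratio of 0.481, and Rpl11 1345, 1312, 1210 and 718 CPM, a ratio of 0.534. Together they had 2253, 2179, 1906 and 1155 CPM, with ratios to d1 of 0.967, 0.846 and 0.512. The 8 genes of the peptide exit tunnel and its rim summed to 8347, 7391, 7483 and 4506 CPM, with a d14 ratio of 0.540 that is close to that of the whole set. Within these 8 the d14 ratios ran from 0.416 for Rpl35 and Rpl39 to 0.723 for Rpl19, so members with like positions did not share a level. Rpl3, Rpl8 and Rpl10, near the peptidyl transferase centre, had a summed d14 ratio of 0.542, with 0.647 for Rpl8 and 0.528 for Rpl10.

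In the small subunit, the 4 genes of mRNA entry and decoding, Rps2, Rps3, Rps15 and Rps23, summed to 4112, 3719, 3798 and 2635 CPM. Their d14 ratio was 0.641 (0.625 to 0.657) and their make-up ratio 1.17. The 5 genes of the mRNA exit side summed to 5786, 4560, 5022 and 3039 CPM, a d14 ratio of 0.525 (0.514 to 0.537). Here Rps26 (1380, 1018, 1048 and 586 CPM) and Rps28 (1390, 964, 1193 and 604 CPM) had ratios of 0.425 and 0.434, while Rps14 stayed at 0.744. Rpsa, also known as the laminin receptor, had 1437, 1128, 1180 and 793 CPM. Rps6, the substrate of S6 kinase, had 644, 602, 477 and 435 CPM, with most of its loss before d7, and a d14 ratio of 0.675 (0.634 to 0.719). Rps27a, made as a fusion with ubiquitin, had 1540, 1413, 1344 and 824 CPM.

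Rpl41, Rps24, Rpl37, Rps29, Rpl23, Rplp1, Rpl38, Rpl36 and Rpl13 were among the 10 members with the most UMIs over all sections, and these 10 gave 23.2% of members' UMIs at d1 and 21.5% at d14. Rpl41 had 2496, 2517, 3507 and 1214 CPM. It was 1.40 times higher at d7 than at d1 and 0.486 of d1 at d14. Rpl36 had 1806, 1344, 2058 and 1076 CPM and Rps29 2023, 1555, 2120 and 1178 CPM, and both were low at d4 and high at d7. Rps24 (2459, 2129, 1995 and 1082 CPM) and Rpl23 (2305, 1879, 1694 and 1053 CPM) were instead lower at each step. Rpl37 had 2141, 2041, 1866 and 1273 CPM, Rpl38 1924, 1661, 2083 and 957, and Rpl13 1875, 1541, 1764 and 943.

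Below 0.5 of d1 at d14, beside those already given, lay Rpl22 (976, 864, 799 and 443 CPM), Rpl36a (683, 592, 581 and 310), Rpl21 (1669, 1493, 1411 and 760) and Rps4x (1446, 1281, 1199 and 679). Further ones were Rpl32 (1268, 963, 1155 and 604), Rpl12 (773, 678, 643 and 384) and Rps15a (1310, 1043, 1262 and 551). Rpl22, Rpl36a, Rpl21, Rps4x and Rpl12 were lower at each later section, while Rpl32 and Rps15a were higher at d7 than at d4. The order of d4 and d7 rests on the total: 41 members were higher at d7 than at d4 here, 27 with all UMIs in the total and 72 with TMM scaling. Likewise 58 members were highest at d1 and 18 at d7, against 68 and 8 with all UMIs in the total.

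Levels spanned a wide range within a section. Rpl10 was lowest at d1 (490.3 CPM), d4 (484 CPM) and d14 (259 CPM), Rps18 was lowest at d7 (476 CPM), and Rpl41 was highest in the first 3 sections and Rpl37 at d14. These values count captured molecules, and how well the mRNA of each gene is captured was not measured. They therefore need not rank the genes' mRNA numbers. Rps25, a small subunit protein used by some viral internal ribosome entry sites, had 899, 659.7, 626 and 465 CPM, so that its loss was already present at d4. Rpl23a, at the rim of the exit tunnel, had the same course with 941, 735, 688 and 540.3 CPM. Rpl13a, also known as a translational silencer when released from the ribosome, had 1383, 1147, 1048 and 724 CPM, and Rpl4, in the tunnel wall, had 1125, 1059, 853 and 608 CPM. Rpl13a and Rpl4 were counted as lower than d1 at d7 but not at d4, where Rps25 and Rpl23a already were. Rps27 had 772, 767, 967 and 540.1 CPM and was, with Rpl41, the only member counted as higher in a later section than at d1 under the total used here.

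Reads of some members cannot be assigned with certainty. In GENCODE transcripts, 42 of the 76 share at least 1 window of 90 bases in their last 300 bases with another annotated gene. For 8 members the other gene is itself in the files: Rpl9, Rpl10, Rpl17, Rpl35, Rpl36a, Rpl41, Rps18 and Rps27. The shared part was 100% of windows for Rps27 (with Rps27rt) and Rpl10, 95.3% for Rpl35, 91.0% for Rpl36a and 6.16% for Rpl9, so the counts of Rps27, Rpl10, Rpl35 and Rpl36a are the least certain. Rps27rt itself had 59.2, 61.1, 46.3 and 68.5 CPM.

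Rpl3 and Rpl3l encode alternative forms of the same large subunit protein. Rpl3l had 65 UMIs in the d1 section (20.2 CPM), 109 in that of d4 (18.6 CPM), 255 in that of d7 (45.8 CPM) and 928 in that of d14 (216 CPM). The d14 level was 10.7 times that of d1 (8.31 to 14.0) and the d7 level 2.27 times (1.72 to 3.03), while d4 was within counting error of d1. Its share of the pair's UMIs was 2.66%, 2.67%, 7.79% and, in the last section, 42.8% (40.7% to 44.9%). The pair together was 0.665 of d1 at d14 (0.627 to 0.705), a smaller loss than that of Rpl3 alone. No window at the end of Rpl3l was shared with another gene, while 72.04% of those of Rpl3 were shared with other annotated genes, none of them in the files. The part of such sharing in the pair's shares was not tested.

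The elongation factor pair had the same form. Eef1a1 had 3459, 3197, 2670 and 1307 CPM and Eef1a2 182, 183, 268 and 582 CPM, so Eef1a2 was 3.20 times higher at d14 than at d1 (2.92 to 3.50). The share of Eef1a2 in the pair was 5.00%, 5.42%, 9.14% and 30.8%. In the other pairs both partners were lower at d14 than at d1, or the paralogue was near absent. Rpl22l1 had 321, 202, 257 and 128 CPM, a d14 ratio of 0.399 beside 0.453 for Rpl22. Rps27l had 314, 356, 374 and 204 CPM and Rpl36al 450, 378, 432 and 267 CPM. The share of Rpl36al in its pair was 39.7% at d1 (38.1% to 41.3%) and 46.3% at d14 (44.3% to 48.3%), that of Rpl22l1 24.7% and 22.4%, and that of Rps27l 29.0% and 27.5%. Rpl39l had at most 2 UMIs in a section and Rpl10l had none, where 3 UMIs is 0.513 to 0.9304 CPM.

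**Figure D2:**
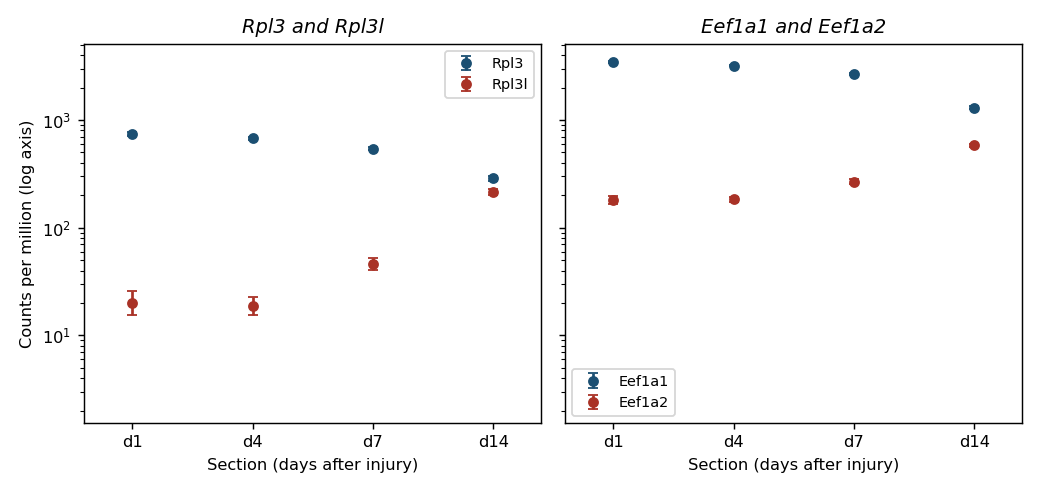
Level (CPM, log axis) of Rpl3 and Rpl3l (left) and of Eef1a1 and Eef1a2 (right) in the 4 sections, with 95% Poisson intervals that cover counting error only. The lines of points approach each other by d14, where Rpl3l had 216 and Rpl3 288 CPM.

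Ribosomal protein genes outside the naming rule followed the set with the exception of Rpl3l and 2 genes that passed no limit. Of the 9 tested at d14, 6 were lower (among them Rpl22l1, Rpl36al, Rps3a1, Rps27l and Fau), 1 was higher (Rpl3l), and Rpl7l1 and Rps27rt were neither. Rps3a1 had 1368, 1232, 1131 and 705 CPM, and Fau, whose product releases a small subunit protein by cleavage, had 1417, 1425, 1437 and 956 CPM.

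The sums of the other translation lists were also below d1 at d14, less so than that of the ribosomal protein genes, under each of the 5 totals tried. The 13 elongation and nascent chain genes summed to 0.666 of d1 (0.655 to 0.677), with 8 of 12 tested lower (66.7%, where 27.1% of all features were lower and 24% higher) and Eef1a2 higher. The 46 ribosome biogenesis genes summed to 0.712 (0.689 to 0.737), with 15 of 33 tested lower (45.5%) and none higher. The nucleolar proteins Npm1 (263, 244, 200 and 105 CPM) and Fbl (103, 80.4, 51.5 and 41.8) and the box H/ACA protein Nhp2 (76.0, 64.7, 64.5 and 33.0) were past 2-fold. The 35 initiation genes summed to 0.871, with 18 of 35 lower (51.4%) and 3 higher (8.57%). The 29 genes of mTORC1, the TOP regulators and Myc summed to 0.902, with 6 of 24 lower (25%) and 5 higher (20.8%), both close to the shares over all features. In that list Myc, a transcription factor that drives ribosome production, had 31.6, 12.5, 9.34 and 4.18 CPM, and the translation inhibitor Eif4ebp1 had 292, 270, 274 and 134 CPM.

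The 78 mitochondrial ribosomal proteins serve as a comparison, since they build the ribosome of another compartment. They summed to 10454, 9649, 10083 and 9240 CPM, a d14 ratio of 0.884 (0.871 to 0.897), and 22 of 78 were lower (28.2%, against 27.1% of all features) and 5 higher (6.41%, against 24%). Their median was 0.871 where that of the cytoplasmic set was 0.563. Mrps27 was past 2-fold lower (70.4, 49.4, 56.7 and 32.3 CPM) and Mrpl16 past 2-fold higher (39.4, 59.5, 59.1 and 98.3 CPM). The 25 proliferation markers, by contrast, took 0.102%, 0.165%, 0.0904% and 0.0199% of UMIs and so were highest at d4, where the ribosomal protein genes were not.

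**Figure D3:**
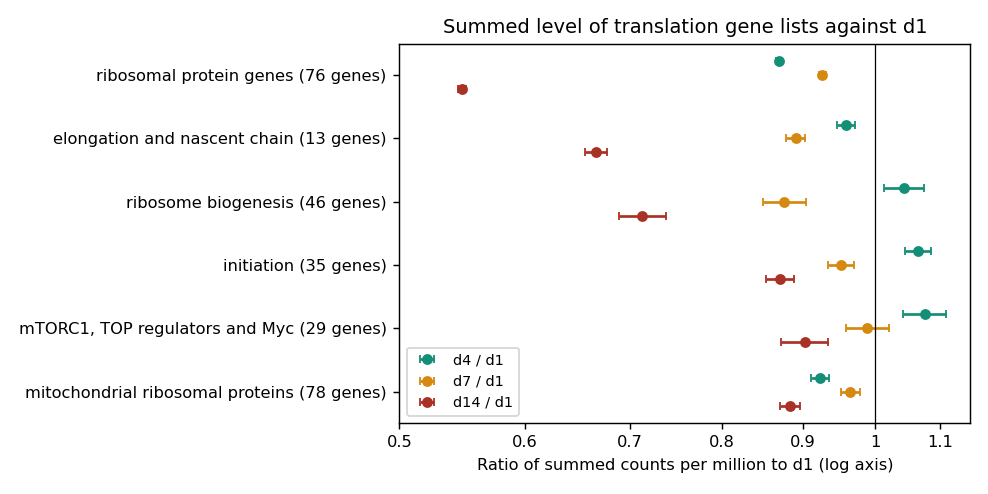
Summed level of 6 lists of translation genes in the d4, d7 and d14 sections as a ratio to d1 (log axis), with 95% counting intervals. At d14 the ribosomal protein genes lie lowest at 0.548 and the mitochondrial ribosomal proteins at 0.884.

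Within a section the share differed between spots. At d1 it ran from 5.49% to 13.2% with a median of 8.84%, at d4 from 5.54% to 14.6% with a median of 7.40%, at d7 from 5.99% to 15.5% with a median of 8.19%, and at d14 from 2.71% to 9.40% with a median of 4.84%. The quartiles of d14 (4.47% and 5.34%) lay below those of every other section. Thinned to 2500 UMIs per spot, which leaves out 40, 3, 3 and 131 shallower spots, the medians were 8.88%, 7.45%, 8.17% and 4.84%. The share went with depth in part: Spearman's rho with the spot's UMIs was 0.35, 0.53, 0.00 and 0.11, a description over spots that share a section. In the deepest of 3 equal groups of spots it was 9.32% at d1 and 8.36% at d4, against 8.80% and 7.19% in the shallowest. At d14 it was 5.09% against 4.86%, while d7 went the other way with 8.40% against 8.59%. Every one of these groups at d14 lay below all of those of the other sections.

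Spots were grouped in each section by their other genes, and the group with the most UMIs from 18 matrix genes such as Col1a1, Fn1 and Postn is called matrix-rich. It stands for the injured and scarring area only as far as these genes do, because spot positions were not used. It held 40, 48, 54 and 156 spots, and the matrix genes that chose it took 1.61%, 4.30%, 4.43% and 1.97% of its UMIs. The ribosomal protein genes, which played no part in the grouping, gave 10.9% of UMIs there against 8.98% in the other spots at d1, 10.6% against 7.64% at d4, 12.1% against 8.19% at d7, and 6.08% against 4.81% at d14. The group was not of one make-up over time. Its leading genes were Spp1, Il1rn, Gpnmb and Arg1 at d1, Ccn5, Actg2 and Col8a1 at d4, Wfdc18, Osr1 and Ccn5 at d7, and Gpnmb, Cfd and Mmp12 at d14. The 11 macrophage markers took 0.303%, 0.165%, 0.153% and 0.186% of its UMIs, the 10 fibroblast markers 0.135%, 0.353%, 0.569% and 0.864%. The matrix-rich group had the highest share of all clusters of its section at every time point. The ratios were 1.21 (1.196 to 1.227), 1.39 (1.376 to 1.3998), 1.48 (1.464 to 1.493) and 1.26 (1.2495 to 1.278).

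Much of this moved with the muscle genes. The cardiomyocyte list took 8.48% of UMIs in the matrix-rich spots against 13.4% in the rest at d1, 6.13% against 12.6% at d4, 6.28% against 14.1% at d7, and 12.5% against 16.8% at d14, with all 28 markers detected in both. The 86 nuclear respiratory chain genes took 8.76% against 14.8%, 5.57% against 12.6%, 7.90% against 15.9% and 10.7% against 15.5%. With both lists out of the total, the ratios of the ribosomal protein genes were 1.05, 1.18, 1.21 and 1.11. They stayed above 1 in all 4 sections. At d7 the matrix-rich spots also held 170 of the section's 233 skeletal muscle UMIs, and without spots holding such a UMI the d7 ratio was 1.51. Depth differed as well, with a median of 6100.5 UMIs in matrix-rich spots and 7981 in the rest at d1, and of 12192 and 7497 at d4. The part of depth in the ratios was not tested.

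**Figure D4:**
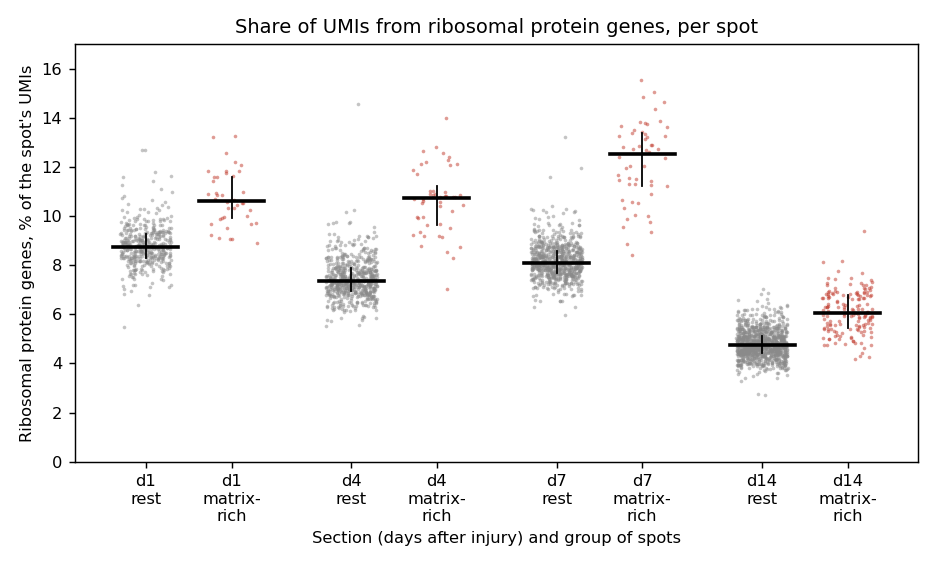
Share of each spot's UMIs (%) from the 76 ribosomal protein genes in the 4 sections, for matrix-rich spots (red) and the rest (grey). Each point is 1 spot, horizontal bars are medians and vertical bars run from the lower to the upper quartile; the medians of matrix-rich spots are 10.6%, 10.7%, 12.5% and 6.07%, each above that of the rest of its section.

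The ranges of the 2 groups of spots overlapped, but most matrix-rich spots lay high. In the order of the sections, 87.5%, 97.9%, 98.1% and 85.3% of them lay above the upper quartile of the rest. At d14 they ran from 4.18% to 9.40% and the rest from 2.71% to 7.04%. The highest share at d4, 14.6%, was that of a spot in the rest. At d4 the median matrix-rich spot had 10.7%, and 0.163% of the other spots lay above it, while at d7 it had 12.5% and 0.139% of the others lay above. At d1 and d14 2.96% and 2.55% of the other spots lay above the matrix-rich median. All spots of a section come from 1 heart, and these shares only describe the 4 sections.

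By the limits of 0.8 and its inverse, 34, 60, 69 and 40 of the 76 members were higher in matrix-rich spots, in the order of the sections, and none was lower in any section. The background of higher features was 20.3%, 25.7%, 25.3% and 24.3%, and among features reaching 200 CPM 34.9%, 44.5%, 42.5% and 32.3%. Lower were 8.71%, 17.4%, 12.5% and 9.16% of features, and 34.6%, 35.3%, 37% and 34% of those reaching 200 CPM. The members counted as higher were 44.7%, 78.9%, 90.8% and 52.6% of the set. Without the muscle and respiratory chain genes in the total the counts were 3, 22, 30 and 11, and the share of all features higher with that total was not computed. There were 23 members counted as higher in all 4 sections, and 74 had a ratio above 1 in all 4, or 49 with that smaller total. For these counts over all 4 sections the share of all features was not computed either. The mitochondrial ribosomal proteins lay the other way, at 0.788, 0.677, 0.746 and 0.850 of the rest.

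Rps12 led at 2 time points. It had 2005 CPM in matrix-rich spots against 1445 in the rest at d1, 1939 against 1070 at d4, 2155 against 1071 at d7 and 867 against 535 at d14. The ratios were 1.39, 1.81, 2.01 and 1.62, and its make-up ratio was past the inverse of 0.8 at d4, d7 and d14. Rpl10a was next to it at d4 (1218 against 697 CPM) and d7 (1505 against 750 CPM). Rps20 at d4 had 2652 against 1518 CPM and Rpl13a at d7 had 1874 against 991. At d14 the leading member was Rpl3, with 465 CPM against 258 and a ratio of 1.81 (1.58 to 2.06), followed by Rps12 and by Rps16 with 899 against 606. At d1 the leading members were Rpl7 (1095 against 738 CPM), Rps19 (1246 against 856) and Rpl37a (1369 against 941).

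Rpl24, Rpl36 and Rps2 each had one of the 3 lowest ratios in more than 1 section. Rpl36 had 1701 CPM in matrix-rich spots against 1814 at d1, 1347 against 1344 at d4, 2212 against 2047 at d7 and 1175 against 1059 at d14, so it was close to even throughout. Its make-up ratio was below 0.8 at d1, d4 and d7. Rps2 had 1200 against 1083 CPM at d4, 1489 against 1266 at d7 and 864 against 895 at d14. Other low members were Rpl24 at d1 (1090 against 1081) and d4 (1030 against 938), Rpl21 at d1 (1693 against 1667) and Rpl29 at d14 (392.1 against 380 CPM). With muscle and respiratory chain genes out of the total, the d7 ratios of Rpl36 and Rps2 turned to 0.882 and 0.959.

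**Figure D5:**
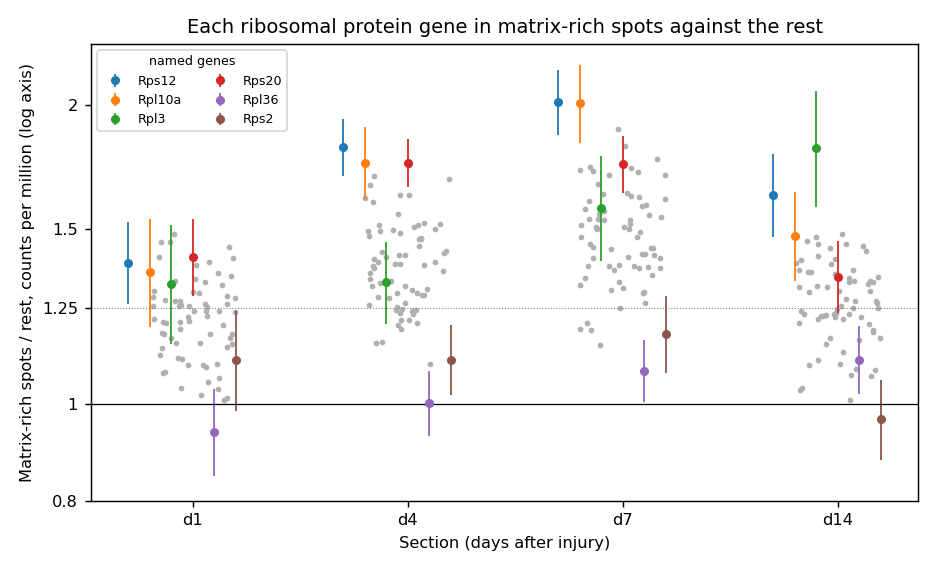
Ratio of the level (CPM) in matrix-rich spots to that in the rest of the section (log axis) for each of the 76 ribosomal protein genes, per section. Grey points are members, spread sideways for legibility, and coloured points are named members with 95% counting intervals; Rps12 lies at 2.01 and Rpl36 at 1.08 in the d7 section.

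At d14 the pairs of Rpl3l and Eef1a2 differed most between the same groups of spots. For Rpl22l1, Rps27l and Rpl36al the d14 intervals overlapped. Their shares of the pair's UMIs were 19.3%, 29.0% and 44.0% in matrix-rich spots and 23.1%, 27.1% and 46.8% in the rest. At d7 Rps27l gave 22.1% in matrix-rich spots and 28.5% in the rest, and Rpl36al 33.8% and 43.5%. At d14 Rpl3l had 76.5 CPM (48 UMIs) in matrix-rich spots and 239 (880 UMIs) in the rest, and gave 14.1% (10.6% to 18.3%) and 48.2% (45.9% to 50.5%) of the pair's UMIs. Before d14 matrix-rich spots held 0 Rpl3l UMIs at d1, 1 at d4 and 2 at d7, against 65, 108 and 253 in the rest. A floor of 3 UMIs in the d1 matrix-rich spots is 12.3 CPM, and the upper Poisson limit of the count of 0 is 15.1 CPM. Eef1a2 gave 17.9% of its pair in matrix-rich spots and 33.9% in the rest at d14. The cardiomyocyte share of these spots, given above, moves in the same direction, and its part was not tested.

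Ribosome biogenesis genes summed to 1.43, 1.19, 1.24 and 1.14 times the rest in matrix-rich spots, but to 1.24, 1.01, 1.01 and 1.01 without muscle and respiratory chain genes in the total. By the first total 14 of 38 tested genes were higher at d1 (36.8%, against 20.3% of all features). Past 2-fold at d1 lay 8 of the 38, where 14.9% of all features did. They were Ppan (82.0 against 13.8 CPM), Rrp12, Nolc1, Ltv1, Brix1, Nop58, Gnl3 and Bop1. Their counts in the matrix-rich spots were small, from 7 UMIs for Rrp12 to 20 for Ppan. The genes past 2-fold were not counted again with the smaller total. The elongation list was at 1.24, 1.32, 1.32 and 1.17, or 1.07, 1.12, 1.08 and 1.03 with the smaller total. The initiation list was at 1.23, 1.11, 1.15 and 1.08, and turned below 1 at d4, d7 and d14 with the smaller total (1.07, 0.936, 0.941 and 0.949). The mTORC1, TOP regulator and Myc list was at 1.15, 0.921, 0.928 and 1.07, with no common direction, and below 1 in all 4 sections with the smaller total (0.995, 0.780, 0.757 and 0.939). At d4, 5 of its 25 tested genes were higher (20%, against 25.7% of all features) and 4 lower (16%, against 17.4%). Myc had 26.6 against 11.0 CPM at d4, and 36.9 against 31.2 CPM at d1, where its interval included 1. Mycn lay the other way at d4, with 3.54 (2 UMIs) against 14.0 CPM.

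From d1 to d14 the summed level of the ribosomal protein genes was 0.559 in matrix-rich spots (0.551 to 0.568) and 0.536 in the rest (0.533 to 0.539). From d1 to d4 the ratios were 0.976 and 0.851. From d1 to d7 they were 1.11 (1.097 to 1.131) in matrix-rich spots and 0.912 (0.908 to 0.917) in the rest, which are on opposite sides of 1. The leading genes and the macrophage and fibroblast shares of the matrix-rich spots differed between sections, as given above, and their part in these ratios was not tested. The difference between these ratios was not tested, as there is 1 section for each time point.

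Across spots thinned to 2500 UMIs, 436 genes outside the set had a mean of at least 0.5 UMIs in every section. Their Spearman correlation with the summed members was highest for Col1a2 (mean rho over the 4 sections 0.38), Col1a1 (0.36), Col3a1 (0.35), Nppa (0.35), Postn (0.32), Bgn (0.31), Sparc (0.31), Eln (0.30), Apoe (0.29) and Mgp (0.28). The d1 section stood lower for several of them, with a rho of 0.07 for Nppa, 0.09 for Eln and 0.04 for Mgp. Most of the 10 encode collagens or other matrix proteins. Nppa, which encodes atrial natriuretic peptide, is one of the 28 cardiomyocyte markers, so these did not all lie on one side. The correlation was lowest for Myh6 (-0.42), Atp2a2 (-0.38), Myl2 (-0.38) and Tnnt2 (-0.35), genes of muscle contraction and calcium handling. Outside the matrix-rich spots the share still went with the matrix list, at a rho of 0.20, 0.38, 0.31 and 0.31. The thinned spots share a fixed total, in which more of one list leaves less for another. For single members against the sum of the others the median rho was low, at 0.10, 0.15, 0.13 and 0.11. The median member had 1126, 993, 1019 and 621 CPM, which leaves few UMIs of 1 member in a thinned spot. The part of this counting noise in the low rho was not tested, so these values do not measure how closely the members go together.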

How the data were processed

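The deposited values are whole-number UMI counts for each feature in each spot, which the authors obtained from Space Ranger (version 1.3.0, per the file headers). The submitters' processing notes name mm10, and also Seurat 4.1.1 with no role. The annotation and the choice of spots are not given in the sources used here. Spots with at least 500 UMIs were kept, which left out 3, 3, 2 and 3 spots, and UMIs were pooled per section or group of spots. Ratios carry exact conditional binomial (Clopper-Pearson) 95% intervals and levels exact Poisson intervals, for counting error only. Clusters were made in scanpy 1.11.5 (Leiden with igraph 0.11.9, resolution 0.8, 15 components, 15 neighbours, 2000 variable genes, counts per 10000), per section, without the members, the other translation lists, haemoglobin and mitochondrially encoded genes. Among clusters holding 10 spots or more, the one in which the matrix list took most UMIs was called matrix-rich. Code was tested on simulated data. TMM factors came from edgeR 4.0.16 in R 4.3.3. Gene positions are from GENCODE on GRCm38 and start sequences from RefSeq.

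Named are the 10 members with most UMIs, the 5 highest and 5 lowest in make-up at d14, members past 2-fold, the 3 highest and 3 lowest in matrix-rich spots per section, the role lists, the paralogue pairs, genes of the other translation lists past 2-fold between sections, and the 10 genes most like the sum. Others are named as stated, and a few genes that the rule names are not reported here. Members, lists and rules were chosen with earlier results of these data known. Alternatives were other totals, TMM scaling, spot and gene minimums, means over spots, other clusterings, leaving out the matrix-rich or skeletal muscle spots, thinning and leaving out the 5 most abundant members. Other totals within matrix-rich spots, within the rest and for the other translation lists were added after the data were seen.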

Additional observations from a re-analysis of the deposited data

Results flagged for a closer look

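The 2 to 3 spots per section with fewer than 500 UMIs entered no comparison. In them the ribosomal protein genes gave 13.7% of UMIs at d1 (91 of 666; 11.1% to 16.5%, Clopper-Pearson), 7.29% at d4 (40 of 549), 9.51% at d7 (62 of 652) and 7.04% at d14 (50 of 710), each above the 3 UMIs that a count of 0 allows.

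The summed level of the ribosomal protein genes from d1 to d7 was 1.11 in matrix-rich spots and 0.912 in the rest of the section, on opposite sides of 1. The difference between these values was not tested. Macrophage markers took 0.303% of UMIs in the matrix-rich spots at d1 and 0.153% at d7, and their part was not tested. With all UMIs in the total they were 1.07 and 0.846, and without muscle and respiratory chain genes 1.07 and 0.936.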

How the results depend on the processing

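Over whole sections, all alternatives kept the ribosomal protein genes below d1 at d4, d7 and d14 and higher in matrix-rich spots, and the cause of each shift below was not tested unless the total itself shows it. Only the d7 to d4 sum turned, to 0.987 with all UMIs in the total. Ratios are given as d4, d7 and d14 to d1, then d7 to d4 and d14 to d7. With all UMIs in the total those that moved were 0.860 (d7), 0.528 (d14) and 0.613 (d14 to d7), with 1 member higher and 25 lower at d7. With the members out of the total they were 0.858, 0.919, 0.524, 1.07 and 0.570, with 1 member higher at d7. Without muscle and respiratory chain genes they were 0.830, 0.947, 0.577, 1.14 and 0.609, with 22 members lower at d4. TMM scaling gave 0.756, 0.932, 0.570, 1.23 and 0.612, with 48 lower at d4. Means over spots gave 0.857, 0.943, 0.555, 1.1004 and 0.588. Without the matrix-rich cluster they were 0.851, 0.912, 0.536, 1.07 and 0.588, with 1 higher at d7. Median shares per spot over all UMIs were 6.96% (d4), 7.14% (d7) and 4.398% (d14), and without the 5 most abundant members 2 members had a lower make-up at d7. The share of all features past a limit was computed only for the total and spots used above. Counts under other totals, scalings or spots therefore have none beside them.

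For matrix-rich spots against the rest, at d1, d4, d7 and d14, all UMIs in the total gave 1.23, 1.44, 1.56 and 1.29. A total without muscle and respiratory chain genes gave 1.05, 1.18, 1.21 and 1.11, with 3, 22, 30 and 11 members higher. Without the matrix list it was 1.44 (d4), 1.54 (d7) and 1.28 (d14). Leiden at 0.5 gave 1.497 (d7) and 1.29 (d14), and at 1.2 gave 1.24 (d1), 1.497 (d7) and 1.29 (d14). Joint clustering gave 1.37 (d4), 1.53 (d7) and 1.34 (d14), and the top 10% of spots by the matrix list 1.246, 1.35, 1.40 and 1.31. Means over spots gave 1.42 at d4, and leaving out spots with a skeletal muscle UMI 1.51 at d7. Within matrix-rich spots d4, d7 and d14 to d1 were 0.998, 1.07 and 0.541 with all UMIs and 0.914, 1.07 and 0.603 without muscle and respiratory chain genes. Within the rest, d7 and d14 were 0.846 and 0.515 with all UMIs, and d4, d7 and d14 were 0.817, 0.936 and 0.569 without those genes.

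For 61 named genes, 20 of 4136 values crossed 1 from a ratio whose interval excluded 1, of which 14 were with muscle and respiratory chain genes out of the total and 4 with all UMIs in it. None of these had passed the limits of 0.8 and its inverse. They include Rpl36 and Rps2 in matrix-rich spots at d7 (0.882 and 0.959). No paired analysis was possible because each time point has 1 section. The d14 section was the shallowest per spot, and no interval covers differences between hearts.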
